A study of Mus musculus with 2 samples.

Results

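A set of 10 genes of the calcium, calcineurin and NFAT route was followed in CD4 T cells activated with or without extra OX40L on the cells that present antigen. They were picked by gene symbol and are the factors Nfatc1, Nfatc2, Nfatc3 and Nfat5, the calcineurin catalytic subunits Ppp3ca, Ppp3cb and Ppp3cc, the calcineurin inhibitor Rcan1, and the calcium entry genes Stim1 and Orai1. All 10 had a value, out of 17097 genes with a probe set paired with a single symbol. RNA was taken from CD4 T cells of C57/Bl6 mice that were 6 weeks old and carried a Foxp3-eGFP reporter. The cells had been sorted as naive and Foxp3-negative and cultured for 48 hours. Soluble antibody to CD3 was added to stimulate their T cell receptor. In 1 culture the antigen-presenting cells (APC) carried an OX40L transgene (OX40L-Tg APC), and in its control they were wild type (Wt APC). The APC of both cultures were splenocytes depleted of CD3+ cells and briefly exposed to 50 ug/ml mitomycin C, which stops division. OX40L is the ligand of OX40, a costimulatory receptor of activated T cells. Neither the promoter of the transgene nor the number of mice is given in the sources used here, and there was 1 Affymetrix array per culture.

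In T cells, the T cell receptor releases calcium from the endoplasmic reticulum. STIM1 senses the emptied store and opens ORAI1, the calcium channel of the plasma membrane. Calcium and calmodulin then activate calcineurin, a phosphatase made of a catalytic subunit (encoded by Ppp3ca, Ppp3cb or Ppp3cc) and a regulatory subunit (encoded by Ppp3r1 in T cells). Calcineurin dephosphorylates NFATc1, NFATc2 and NFATc3, which enter the nucleus and bind cytokine genes, often together with AP-1. NFAT5 belongs to the same family by its DNA-binding domain, but it is not controlled by calcineurin and is known for the response to osmotic stress. Much of this control acts on proteins, by phosphate groups and location, which an array of transcripts does not read.

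Of the 10 genes, 1 was lower by 1.5-fold or more and 1 was higher by that size in T cells cultured with OX40L-Tg APC, and 0 reached 2-fold. Of the 10541 genes that reached the median intensity of either array, used as a floor, 3.36% were lower and 3.85% higher by 1.5-fold or more, and 1.17% and 1.56% reached 2-fold in those directions. With 10 members, single genes past 1.5-fold are too few to set apart from these shares. Nfatc1 was the lower one, at 368 units with OX40L-Tg APC against 684 units with Wt APC. Ppp3ca was the higher one, at 319 units with OX40L-Tg APC against 176 units with Wt APC. The other 8 differed by less than 1.5-fold, with Nfat5 and Rcan1 nearest to that size and both higher. With a single array per culture no difference can be tested, and nothing measures the spread between cultures. Values are given as intensities on a linear scale. A difference is the log2 value with OX40L-Tg APC less that with Wt APC.

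The arrays were close to each other, with a correlation of 0.993 over 45141 probe sets and a median difference of 0.02 over the genes that reached the floor, which was 14.7 units on both. The central 95% of the differences of these genes lay between -0.71 and 0.77. Genes listed as restricted to other organs set a background level, their 95th percentile, of 43.2 units on the OX40L-Tg APC array and 37.7 units on the Wt APC array. Not all of them were silent. Of the 59 with a value, 19 reached the floor and 3 lay above that level on both arrays. The highest reading among them was 4491 units on the OX40L-Tg APC array and 3302 units on the Wt APC array. The background level is therefore an approximate cutoff. Of the T cell markers, the labelled cell type, 11 of 11 measured were above background on both arrays. B cell and MHC class II transcripts were present as well, with 4 of 7 and 5 of 6 above background on both arrays. Of the 2 CD8 markers, Cd8b1 read 239 units with OX40L-Tg APC and 191 units with Wt APC, and Cd8a lay below background on both arrays, at 30.9 units with OX40L-Tg APC and 27.5 units with Wt APC. Of 4 dendritic cell markers 1 was above background on both arrays. The globin gene Hba-a1, an erythroid marker, read 207 units with OX40L-Tg APC and 1161 units with Wt APC. Alas2, the other erythroid marker with a value, lay below background on both arrays, at 12.0 units with OX40L-Tg APC and 14.9 units with Wt APC. The part of erythroid transcripts in the results below was not tested. None of the 8 macrophage, 3 neutrophil, 2 NK cell and 3 adipocyte markers with a value was above background on both arrays. The adipocyte markers were examined because the extraction protocol in the labels names adipose tissue.

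**Figure D1:**
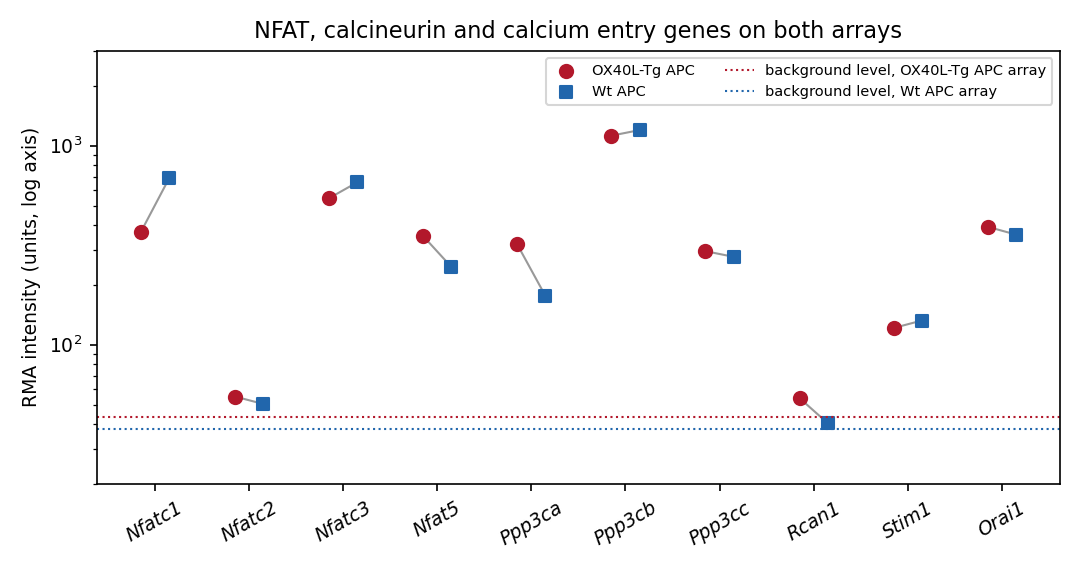
RMA intensity in units (log axis) of each of the 10 genes on the OX40L-Tg APC array (red circles) and the Wt APC array (blue squares), 1 array each, with grey lines joining the pair and dotted lines at each array's background level. Nfatc1 was lower with OX40L-Tg APC, at 368 units against 684 units with Wt APC, Ppp3ca was higher, at 319 units against 176 units with Wt APC, and Nfatc2 and Rcan1 lay close to background.

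Nfatc1 encodes a factor that activated T cells are known to induce through their own NFAT signal, in part by a promoter that yields a short isoform. Its brightest probe set read 368 units with OX40L-Tg APC and 684 units with Wt APC, 1.86-fold lower, a difference of -0.90. Only 1.48% of the genes above the floor had a more negative difference. A probe set carries a group of short probes for a stretch of the transcript, and Nfatc1 has 5 of them. The others read 257, 294, 48.4 and 22.2 units with OX40L-Tg APC, against 512, 431, 66.6 and 39.1 units with Wt APC in the same order. All 5 were lower with OX40L-Tg APC, by differences from -0.998 to -0.46. The dimmest of the 5 lay below background on the OX40L-Tg APC array. Which isoform each probe set reads was not analysed here.

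T cell markers were lower on the same array, in 10 of 11 cases, where 54.0% of all genes above the floor were higher. The markers had a median difference of -0.27 and a range from -0.67 to 0.09. Their summed level was 22569 units with OX40L-Tg APC and 26366 units with Wt APC. The difference of -0.90 of the brightest Nfatc1 probe set lay outside the range of these markers, but of the 4 Nfatc1 probe sets above background 2 lay inside it, at -0.55 and -0.46. In sorted bulk cells, fewer cells of a type and less RNA per cell cannot be told apart. The part of the T cell markers in the Nfatc1 result was not tested.

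Nfatc2 encodes NFAT1, the factor known to be present in resting T cells. It read 54.9 units with OX40L-Tg APC and 50.4 units with Wt APC, a difference of 0.12, with both values a little above background. Its other 2 probe sets lay below background on both arrays. A further 2 probe sets are paired with Nfatc2 and a second gene at once and were left out, so the low readings do not show that Nfatc2 was scarce.

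Nfatc3 encodes NFAT4, another calcineurin-controlled factor of T cells. It read 544 units with OX40L-Tg APC and 654 units with Wt APC, a difference of -0.27. A second probe set read 186 units with OX40L-Tg APC and 193 units with Wt APC, a difference of -0.05, and the remaining one lay below background. All 3 were lower with OX40L-Tg APC, none of them by 1.5-fold.

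Nfat5, the osmotic stress factor, differed in the other direction. It read 351 units with OX40L-Tg APC and 246 units with Wt APC, 1.43-fold higher, a difference of 0.52, and 4.81% of genes had a larger positive one. Its second probe set read 55.6 units with OX40L-Tg APC and 35.1 units with Wt APC, a difference of 0.66, with the Wt APC value below background. The remaining 3 lay below the floor on both arrays and ranged from -0.29 to 0.24, and as the mean of all 5 probe sets the difference was 0.23. Of the 4 factors, 2 were thus higher and 2 lower, and the median of their differences was -0.07.

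Genes known to respond to NFAT5 differed by less than 1.5-fold on these arrays, as most genes above the floor did. Of 6 listed, 5 had a value and 3 reached the floor. Slc6a6, the taurine transporter, read 661 units with OX40L-Tg APC and 663 units with Wt APC. Slc38a2, an amino acid transporter, read 1313 units with OX40L-Tg APC and 1064 units with Wt APC, a difference of 0.30, and Hspa4l, a chaperone of the HSP110 family, read 341 units with OX40L-Tg APC and 366 units with Wt APC, a difference of -0.10. Slc5a3, the myo-inositol transporter, and Slc6a12, the betaine transporter, lay below the floor.

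The calcineurin catalytic subunits diverged. Ppp3ca, which encodes the alpha subunit, read 319 units with OX40L-Tg APC and 176 units with Wt APC, 1.82-fold higher, a difference of 0.86. Only 2.09% of genes had a larger positive difference. Its second probe set read 154 units with OX40L-Tg APC and 81.4 units with Wt APC, a difference of 0.92, so that both probe sets were above background and in accord. Ppp3cb, which encodes the beta subunit, the form needed for mouse T cell development and proliferation, read 1123 units with OX40L-Tg APC and 1198 units with Wt APC, a difference of -0.09. Of its 5 probe sets, 4 were above background, and these ranged from -0.14 to 0.21. Ppp3cc, which encodes the gamma subunit, best known from testis, read 295 units with OX40L-Tg APC and 276 units with Wt APC, a difference of 0.09, with 0.03 in its second probe set. Levels of the 3 subunits are not ranked, because probe sets differ in their brightness for equal amounts of transcript.

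Most B cell and MHC class II transcripts, which are typical of APC, were higher on the OX40L-Tg APC array, as Ppp3ca was. MHC class II genes were higher in 6 of 6 cases, where 54.0% of all genes above the floor were. The 5 above background on both arrays differed by 0.18 to 0.58, and the 6 had summed levels of 3596 units with OX40L-Tg APC and 2688 units with Wt APC. B cell markers were higher in 5 of the 6 that reached the floor. The 4 above background on both arrays differed by 0.23 to 0.92, and the 7 measured had summed levels of 983 units with OX40L-Tg APC and 715 units with Wt APC. The Ppp3ca differences of 0.86 and 0.92 lay above those of the MHC class II genes. Of these 4 B cell markers only Cd79b, at 0.92, reached them. The Nfat5 difference of 0.52 lay inside both ranges. Flt3, the only dendritic cell marker above background on both arrays, read 43.3 units with OX40L-Tg APC and 46.1 units with Wt APC, a difference of -0.09. The 4 dendritic cell markers measured summed to 104 units with OX40L-Tg APC and 95.3 units with Wt APC. Macrophage markers were below background throughout. The part of all these transcripts in the Ppp3ca and Nfat5 results was not tested.

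**Figure D2:**
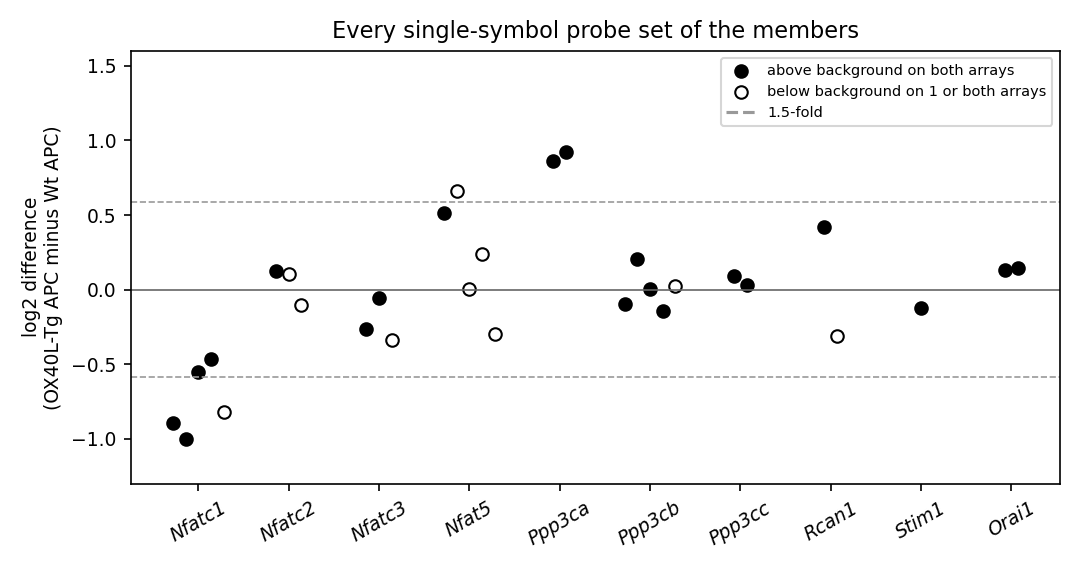
Difference in log2 intensity (OX40L-Tg APC minus Wt APC) of all 30 probe sets paired with a single member symbol. Filled points were above background on both arrays, open points were not, and dashed lines mark 1.5-fold. All 5 Nfatc1 probe sets lie below 0 and both Ppp3ca probe sets lie above 1.5-fold, while the 2 Rcan1 probe sets lie on opposite sides of 0.

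Rcan1 encodes a feedback inhibitor of calcineurin, whose shorter transcript is itself a known calcineurin and NFAT target. It read 53.9 units with OX40L-Tg APC and 40.3 units with Wt APC, a difference of 0.42, both close to background. Its second probe set pointed the other way, with 25.1 units with OX40L-Tg APC and 31.1 units with Wt APC, a difference of -0.31, and lay below background on both arrays. The mean of both was 0.055, so the direction of Rcan1 is unsettled in these values.

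RefSeq promoter windows (mouse build GRCm38.p6, 250 bases before to 50 after a transcript start) are shown for Rcan1 because its 2 starts are known to differ in their response to NFAT. The starts lie 66.1 kb apart on the minus strand. The letters searched were GGAAA, the core that NFAT proteins bind, on both strands, where the second strand reads TTTCC. Capitals mark each match. The downstream window, chr16:92400029-92400328, held 3 matches and the upstream one, chr16:92466120-92466419, held 0.

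Rcan1 downstream start: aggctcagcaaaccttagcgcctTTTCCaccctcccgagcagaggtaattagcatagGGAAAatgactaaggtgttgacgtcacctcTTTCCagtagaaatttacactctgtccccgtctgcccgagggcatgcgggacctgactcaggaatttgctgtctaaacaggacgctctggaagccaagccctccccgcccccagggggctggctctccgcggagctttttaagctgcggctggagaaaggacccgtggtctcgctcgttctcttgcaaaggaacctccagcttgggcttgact
Rcan1 upstream start: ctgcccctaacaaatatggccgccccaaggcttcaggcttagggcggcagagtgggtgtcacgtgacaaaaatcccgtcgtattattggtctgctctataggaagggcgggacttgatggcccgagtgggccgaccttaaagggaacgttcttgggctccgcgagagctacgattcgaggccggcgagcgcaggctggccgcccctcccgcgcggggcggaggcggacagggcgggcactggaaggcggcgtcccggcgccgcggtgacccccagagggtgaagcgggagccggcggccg

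Of all 32851 windows in the same table, 61.3% held at least 1 match and 9.42% at least 3. Windows were found for 7 of the 10 members, and 6 of their 10 windows held a match. None was found for Nfatc1, Ppp3ca or Ppp3cc, so neither member past 1.5-fold was covered. Ppp3cb had 4, Nfat5 had 2, and Stim1 and Orai1 had 0. The windows of Nfatc2 had 1 and 3, and those of Nfatc3 had 1 and 0. A match describes these letters and does not show binding.

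The calcium entry genes differed by less than 1.5-fold, as most genes above the floor did. Stim1, the calcium sensor of the endoplasmic reticulum, has a single probe set, which read 121 units with OX40L-Tg APC and 132 units with Wt APC, a difference of -0.12. Orai1, the pore of the channel, read 391 units with OX40L-Tg APC and 358 units with Wt APC, a difference of 0.13. Its second probe set read 93.4 units with OX40L-Tg APC and 84.3 units with Wt APC, a difference of 0.15.

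Across the 10 genes, 6 were higher and 4 lower with OX40L-Tg APC, where 54.0% of all genes were higher. Their median difference was 0.11, and the median size regardless of sign was 0.20, beside 0.02 and 0.14 for all genes above the floor. Of the 20 member probe sets above background on both arrays, 2 were higher and 2 were lower by 1.5-fold or more. Over all 11898 such probe sets these shares were 3.05% and 2.52%. The 2 higher ones were both of Ppp3ca and the 2 lower ones both of Nfatc1, so they are not independent of each other. Of 6 members with several probe sets above background, 5 had the same sign in all of them, Ppp3cb being the exception. That share was not computed over all genes, so the count only describes the members, and it includes Ppp3cc, with 0.03 and 0.09. The pooled SD between probe sets of a gene that lay above background was 0.12 over 2858 genes. That is a technical scatter within the pair of arrays and says nothing of other cultures. From the most positive, the differences ran Ppp3ca, Nfat5, Rcan1, Orai1, Nfatc2, Ppp3cc, Ppp3cb, Stim1, Nfatc3 and Nfatc1. Nfat5 and Rcan1, Orai1, Nfatc2 and Ppp3cc, and Ppp3cb and Stim1 are neighbours in this order that stood closer together than that scatter.

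**Figure D3:**
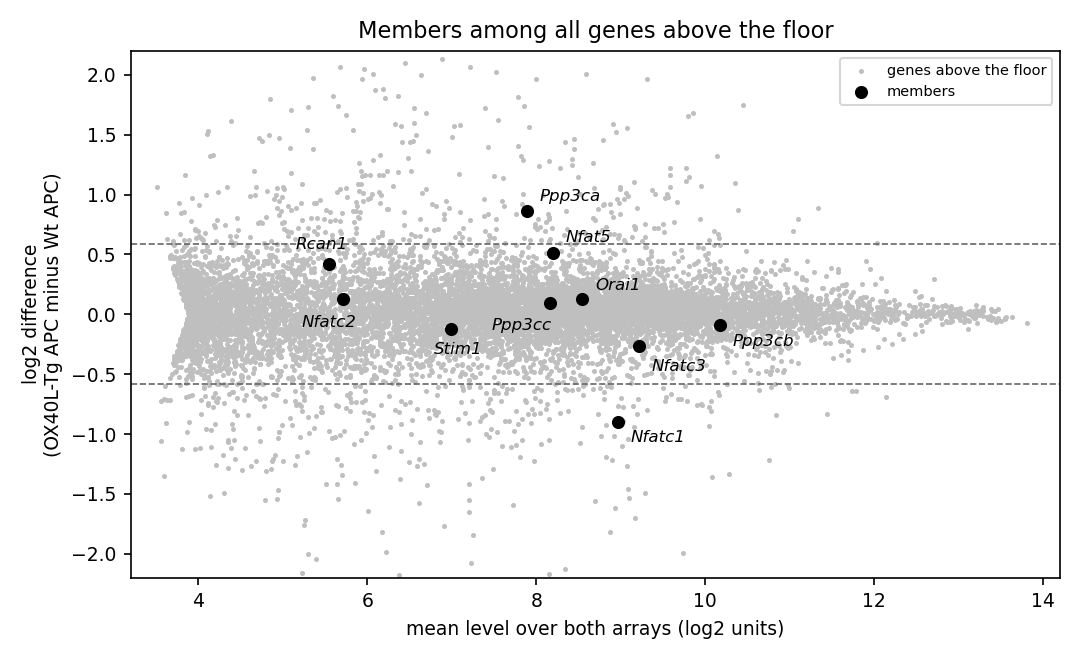
Log2 difference (OX40L-Tg APC minus Wt APC) against the mean log2 level over both arrays, for the genes above the floor (grey) and the 10 members (black, named). Dashed lines mark 1.5-fold, and 42 genes beyond 2.2 in either direction lie outside the axis. Nfatc1 at -0.90 and Ppp3ca at 0.86 lie past the dashed lines, and the other 8 members lie between them.

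Other genes of the route were described from a list of 48, of which 42 had a value and 38 reached the floor. With OX40L-Tg APC, 2 of these were higher and 2 lower by 1.5-fold or more, with a median difference of 0.01, where 3.85% of all genes were higher and 3.36% lower by that size. Of the 2 higher genes, Lrrk2 met the floor only on the OX40L-Tg APC array, where it is high, so it had to differ and supports nothing. With the floor at the 75th percentile of each array, 30 reached it and 2 in place of 4 were apart by that size. Among the partners of STIM1 and ORAI1, Stim2, a second store sensor, read 348 units with OX40L-Tg APC and 534 units with Wt APC, a difference of -0.62. Its second probe set, below the floor on both arrays, differed by -0.33, and as the mean of both Stim2 was under 1.5-fold. Orai3, a related channel gene, read 110.1 units with OX40L-Tg APC and 78.1 units with Wt APC, a difference of 0.49, and Orai2 read 56.3 units with OX40L-Tg APC and 51.9 units with Wt APC, a difference of 0.12. Stimate, which encodes an endoplasmic reticulum protein that aids STIM, differed by 0.56, with 0.53 in its other probe set. Stim2 was thus lower, as Stim1 was, and the values of Orai2 and Orai3 given here were higher, as that of Orai1 was. The differences of Stim1, Orai1 and Orai2 were near the scatter of 0.12 between probe sets of a gene, so these signs make no pattern. The second probe set of Orai2 differed by -0.04.

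Of the channels that sustain calcium entry, Kcnn4, a calcium-activated potassium channel of activated T cells, read 1371 units with OX40L-Tg APC and 2455 units with Wt APC. It was 1.79-fold lower, and its 2 probe sets differed by -0.84 and -0.82. Trpm4, a calcium-activated cation channel that limits calcium entry, read 71.0 units with OX40L-Tg APC and 45.9 units with Wt APC, a difference of 0.63. Kcna3, the voltage-gated potassium channel of T cells, lay below background on both arrays. Mcu, the calcium uniporter of mitochondria, differed by -0.47. Among the receptors that release stored calcium, Itpr2 read 132 units with OX40L-Tg APC and 177 units with Wt APC, a difference of -0.42, with -0.48 in the other of its 2 probe sets above background. The remaining 3 of its 5 probe sets lay below background. Itpr3 differed by 0.04, and Plcg1, the phospholipase upstream of them, lay below the floor.

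Calmodulin genes and regulators of calcineurin all differed by less than 1.5-fold, as did 9781 of the 10541 genes above the floor. Of the 6 regulators and scaffolds that reached the floor, 5 were higher, where 54.0% of all genes were. Their median difference was 0.15, beside 0.02 for all genes. Regardless of sign the median size was 0.15, beside 0.14 for all genes. Calm2 and Calm3, which encode calmodulin, differed by 0.07 and -0.03. Ppp3r1, the regulatory subunit, read 1157 units with OX40L-Tg APC and 1017 units with Wt APC, a difference of 0.19. Its probe sets ranged from -0.05 to 0.19. Chp1, a calcineurin B homologue known to inhibit calcineurin, differed by 0.22, and Fkbp1a, which encodes the binding protein of the calcineurin inhibitor FK506, by 0.19. Rcan3, an Rcan1 relative, differed by 0.12 and Cabin1, a calcineurin-binding inhibitor, by -0.05, while Rcan2 lay below the floor. Among the kinases that return NFAT to the cytoplasm, Gsk3b differed by -0.04 and Dyrk1a by -0.13. The 3 probe sets above background ranged from -0.04 to 0.36 for Gsk3b and from -0.25 to -0.04 for Dyrk1a. Dyrk2 differed by -0.47 and Csnk1e, a casein kinase, by 0.55. Lrrk2, known as a negative regulator of NFAT in mouse macrophages, read 28.5 units with OX40L-Tg APC and 11.3 units with Wt APC, past 1.5-fold but below background on both arrays. Nfatc4, the remaining family member, lay below the floor on both arrays, and Nfatc2ip, an NFATc2 partner at cytokine genes, differed by 0.06.

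Genes known to be bound or induced by NFAT in T cells differed in both directions. Of 23 listed, 21 reached the floor, with 9 higher and 1 lower by 1.5-fold or more and a median of 0.01, where 3.85% of all genes were higher and 3.36% lower by that size. The list was chosen with these results known, so its shares are a description. Of the 9 higher genes, 7 were cytokines. Csf2, which encodes GM-CSF, read 1503 units with OX40L-Tg APC and 192 units with Wt APC, a difference of 2.97. Il3, its neighbour in the cytokine cluster, read 329 units with OX40L-Tg APC and 107 units with Wt APC, a difference of 1.63. Il4 and Il13 differed by 3.37 and 3.11 and Il2, the T cell growth factor, by 1.17. Il21 read 1413 units with OX40L-Tg APC and 25.6 units with Wt APC, and Il5 read 104 units with OX40L-Tg APC and 19.3 units with Wt APC, with both Wt APC values below background. Egr2, a factor induced by the T cell receptor, differed by 1.44. The remaining higher gene was Il2ra, at 0.89.

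The remaining targets at the floor were lower with OX40L-Tg APC, except Irf4 and Cd40lg. Irf4, a factor induced by the T cell receptor, read 3461 units with OX40L-Tg APC and 2670 units with Wt APC, a difference of 0.37, with 0.55 in its other probe set. Ifng, the type 1 cytokine, read 198 units with OX40L-Tg APC and 351 units with Wt APC, a difference of -0.83. Fasl, the death ligand, read 606 units with OX40L-Tg APC and 859 units with Wt APC, a difference of -0.50, with -0.57 in its other probe set. Nr4a1, an immediate target of receptor signalling, differed by -0.58. The inhibitory receptor genes Pdcd1, Lag3 and Ctla4 differed by -0.53, -0.42 and -0.34. Tnf and Ccl3, a chemokine gene, differed by -0.17 and -0.30. Ccl4, its neighbour, differed by -0.29 and lay below background on the OX40L-Tg APC array, and Cd40lg and Egr3 lay below background on both arrays. The T cell markers given with Nfatc1 had a median difference of -0.27, and their part in these differences was not tested.

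Il4 and Ifng are set side by side because both are known NFAT targets and their differences had opposite signs. As a pair picked by sign, they do not show that the number of matches goes with direction. The window at the upstream start of Il4, chr11:53618616-53618915 on the minus strand, held 5 matches of GGAAA or TTTCC. The window of Ifng, chr10:118440796-118441095 on the plus strand, held 1. Capitals again mark the matches.

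Il4: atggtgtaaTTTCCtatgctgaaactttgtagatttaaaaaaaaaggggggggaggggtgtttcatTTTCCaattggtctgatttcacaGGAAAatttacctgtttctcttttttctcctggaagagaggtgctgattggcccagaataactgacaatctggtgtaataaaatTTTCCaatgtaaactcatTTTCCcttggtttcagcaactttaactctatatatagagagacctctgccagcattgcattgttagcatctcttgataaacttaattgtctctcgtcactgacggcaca
Ifng: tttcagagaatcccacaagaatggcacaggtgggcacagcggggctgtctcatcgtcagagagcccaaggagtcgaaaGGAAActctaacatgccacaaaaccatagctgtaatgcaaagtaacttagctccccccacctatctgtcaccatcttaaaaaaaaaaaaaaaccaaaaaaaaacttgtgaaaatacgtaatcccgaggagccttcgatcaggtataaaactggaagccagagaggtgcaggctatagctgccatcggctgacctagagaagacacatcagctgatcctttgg

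Windows were found for 18 of the 23 target genes, and 20 of their 23 windows held at least 1 match, or 87.0%, beside 61.3% of all windows. Some windows of Egr2 overlap, so the same letters can be counted more than once. A second Il4 window, at a start further downstream, held 1. These genes were listed as NFAT targets, so the share is a description of the list. Of the 23 windows, 6 held at least 3 matches, beside 9.42% of all windows, which again describes the list. Tnf, which differed by -0.17, held 3 matches, as did Csf2, which differed by 2.97. Il21, which differed by 5.79 with its Wt APC value below background, and 1 window of Egr2, which differed by 1.44, also held 3. Il13, which differed by 3.11, held 4. Whether the number of matches goes with direction was not tested. Fasl, which differed by -0.50, held 2, as did Il2, which differed by 1.17. Il3, which differed by 1.63, held 1, as did Ifng.

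**Figure D4:**
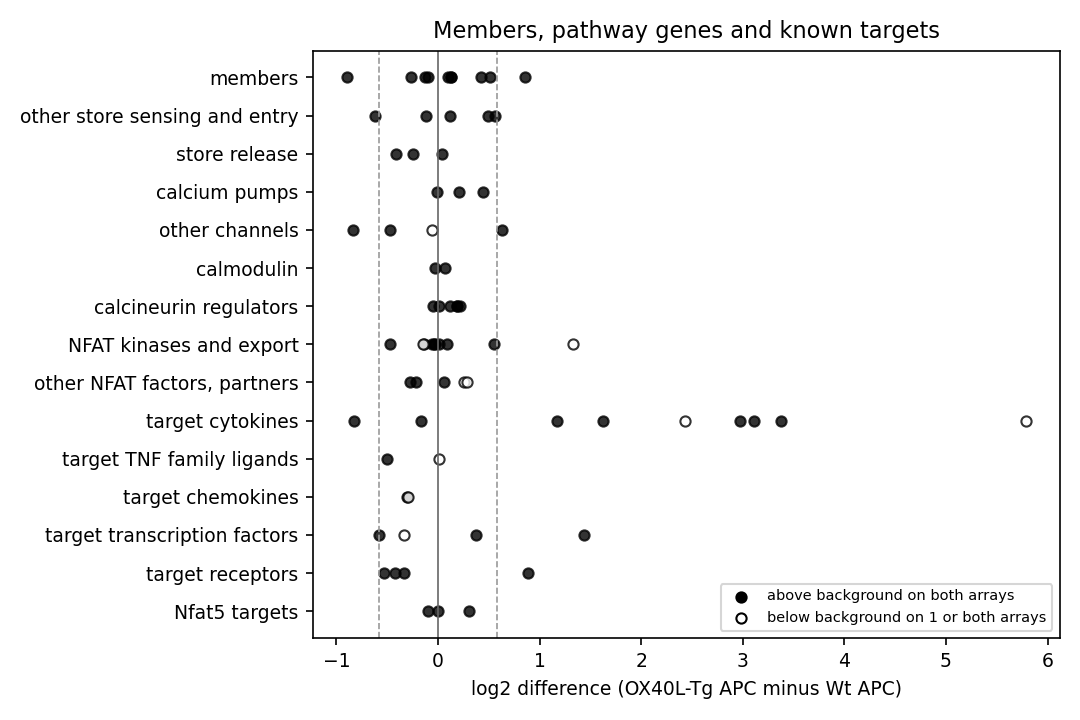
Log2 difference (OX40L-Tg APC minus Wt APC) of genes above the floor in each group of members, other genes of the route and known targets. Filled points were above background on both arrays, open points were not, and dashed lines mark 1.5-fold. The target cytokines above background on both arrays spread from -0.83 to 3.37, and calmodulin and the calcineurin regulators lie between -0.05 and 0.22. The highest open point is Il21, whose Wt APC value lay below background.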

How the data were processed

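RNA of 2 T cell cultures was hybridised to Affymetrix HT_MG-430 PM arrays. The authors ran RMA, as the submitters' processing notes record, and deposited intensity values on a linear scale, from 4.69 to 14686 units. RMA corrects background, equalises the arrays and merges the probes of a set. Its version and the set of arrays normalized together are not given in the sources used here. It pulls low intensities together, so differences of low genes are understated, and a change in total RNA per cell leaves no trace.

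Here log2 was taken of the deposited intensities, without a pseudocount. Of 45141 probe sets, the platform annotation paired 28898 with 1 symbol, 551 with several, and 15692 are unnamed here. Those with 1 symbol were used. A gene took its probe set with the highest mean. The background level came from 59 genes listed as restricted to other organs, not all of which were silent here. Sizes of 1.5-fold and 2-fold served as thresholds, since 1 array per group allows no test. Alternatives were the choice of probe set, a lowess correction (span 0.3), median centring, a pseudocount of 16 units and other floors.

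The members, lists and thresholds were chosen with earlier results of these data known. All members were named, plus list genes at least 1.5-fold apart (up to 8 per list) and a set of key genes. Stimate, Mcu, Dyrk2, Csnk1e, Chp1, Fkbp1a, Nr4a1, Irf4, Ccl3, Ccl4, Pdcd1, Lag3, Ctla4, Il2ra and the Nfat5 targets lay outside that rule and were named after their values were seen. Listed genes without a value are not reported here. Python 3.11.15, numpy 2.4.6, pandas 2.3.3, statsmodels 0.14.6 and matplotlib 3.10.9 were used, and the steps were tested on simulated arrays. That test checked the code only, since the simulated arrays held planted changes with little noise and no spread between cultures.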

Additional observations from a re-analysis of the deposited data

How the results depend on the processing

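In all, 19 results were recomputed under up to 8 planned settings and 2 chosen after seeing the data, giving 137 values. Of these, 127 stayed within the limits used here, which were 0.12 on the log2 scale (the pooled SD between probe sets of a gene, as no replicate spread exists) and 1.5 times for counts. The other 10 moved, and 0 differences past 1.5-fold changed sign. Many of the 137 values had little or no room to move, so the tally is no measure of robustness. The other floors and the probe set with the largest maximum returned the same value for every member they kept. Median centring shifted all members alike by 0.02, and Stim1 has a single probe set. Nfatc1 ranged from -0.92 to -0.73, and stood at -0.74 as the mean of its 5 probe sets and at -0.73 over those above background, a setting added later. Ppp3ca ranged from 0.81 to 0.89. The mean over all probe sets gave 0.23 for Nfat5 and 0.055 for Rcan1. Nfat5 was 0.66 with probe sets free of s, x or a in their ID, a setting that has no value for Nfatc3 and Rcan1. The floor at the 75th percentile left 2 of the other route genes past 1.5-fold in place of 4, and gave the known NFAT targets a median of 0.89 in place of 0.01, with 15 in place of 21 genes. Of the 15, Il2, Il3, Il13 and Il21 reached it only on the OX40L-Tg APC array, where they are high, and Tnf only on the Wt APC array, so that median is no measure of the list. Over the 10 targets that reached it on both arrays, the other setting added later, the median was 0.02 and 5 were past 1.5-fold in place of 10, and 2 of the other route genes were. Over probe sets above background that median was 0.15. The count of members past 1.5-fold was 2 under all settings but that with those IDs, where Nfat5 made it 3 of 8 members, and that past 2-fold was 0 in each. The floor at the 75th percentile excluded 2 members, Nfatc2 and Rcan1. No paired analysis was possible because each group has 1 array. For the same reason no replicate could be left out. Signal limits Nfatc2 and Rcan1, which lay close to background.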
